A study of Mus musculus with 6 samples.

Results

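The mitochondrial genome of mouse hepatocytes was examined gene by gene. Its genes were taken by chromosome name alone, as every transcript that the deposited files place on chromosome MT of GRCm38. This gave 35 of the 48,353 genes in the files, 13 that code for proteins and 22 that code for transfer RNAs, each with 1 transcript. All 35 had the same start, end and strand in the GENCODE M21 annotation, which lists 2 further genes on this chromosome, the ribosomal RNA genes mt-Rnr1 and mt-Rnr2. Those 2 genes are not analysed here, so the ribosomal RNA share could not be given.

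Hepatocytes came from C57BL/6 mice by collagenase perfusion of the liver, and polyadenylated RNA was read in single-end libraries. The knock-out group has 3 libraries from mice in which floxed Bim (symbol Bcl2l11) was deleted by Cre under the albumin promoter, Alb-Cre, which is active in hepatocytes, and the wild-type group has 3 libraries. The labels speak of males on chow, or on a high-fat diet begun at 8 to 10 weeks of age and kept for 14 to 20 weeks, without giving the diet or age of any sample. Whether wild-type mice carried the floxed allele or Alb-Cre is not stated. Nor is it stated that each library is a different mouse, and the p-values here measure only how far these libraries spread, which may be technical. BIM is a protein that promotes apoptosis at mitochondria, and the series concerns its role in liver fat and oxidative stress in obesity.

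The mitochondrial genome is a small circle that encodes core subunits of the respiratory chain and of the ATP synthase, plus the RNAs needed to translate them. Both strands are transcribed into long precursors, most messages lie between transfer RNAs, and cutting at the transfer RNAs releases them. Most of these messages then receive short poly(A) tails inside the organelle, which is why they are captured in libraries of polyadenylated RNA. Liver is rich in mitochondria, and these messages are abundant there.

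A few sequences are shown, because the values below turn on how closely the genes are packed and on what they share with the nucleus. They are the transcript sequences of GENCODE M21 on GRCm38. The genes mt-Atp8 and mt-Atp6 share 43 bases, chrMT:7927-7969 on the plus strand, with the start codon of mt-Atp6 and the stop codon of mt-Atp8 in capitals, and mt-Nd4l and mt-Nd4 share the 7 bases in capitals within chrMT:10147-10193 on the plus strand.
mt-Atp8 and mt-Atp6: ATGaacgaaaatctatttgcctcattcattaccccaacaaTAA
mt-Nd4l and mt-Nd4: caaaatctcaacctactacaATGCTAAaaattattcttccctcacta

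The annotated genes mt-Co3, mt-Nd4 and mt-Cytb end 1 base past the last whole codon, a T (in capitals) that the poly(A) tail is known to complete to a stop codon. Their last 31 bases lie at chrMT:9360-9390, chrMT:11514-11544 and chrMT:15258-15288 on the plus strand.
mt-Co3: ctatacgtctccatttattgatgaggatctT
mt-Nd4: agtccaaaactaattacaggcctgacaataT
mt-Cytb: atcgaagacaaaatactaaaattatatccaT

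Of the 13 protein-coding genes, 12 lie on the plus strand and mt-Nd6 alone on the minus strand. The bases of mt-Nd6 were 28.1% G and 6.0% C, against 9.98% G and 27.1% C in its neighbour mt-Nd5. With G in capitals, the first 60 bases of the genes show it (mt-Nd5 at chrMT:11742-11801 on the plus strand and mt-Nd6 at chrMT:14011-14070 on the minus strand).
mt-Nd5: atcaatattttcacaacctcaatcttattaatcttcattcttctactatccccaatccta
mt-Nd6: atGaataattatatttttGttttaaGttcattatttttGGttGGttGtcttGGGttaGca

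The libraries held 25,335,211 to 31,130,519 estimated reads. Bcl2l11 was listed at 0 reads in all 3 knock-out libraries and at 0, 680 and 478 in wild-type replicates 1 to 3, so wild-type replicate 1 does not stand apart from the knock-out libraries in the targeted gene. The labelled cell type was present in its markers: 6 of 8 hepatocyte markers had reads in all 6 libraries, with a summed level of 17818 to 40140 RPKM (reads per kilobase of transcript, scaled to library size). Most of this was Alb, at 15024 to 35550 RPKM. Cps1 was at 3.09 to 9.17 RPKM, and Pck1 and Tat were at 0 in every library. Wild-type replicate 1 also held macrophage RNA. The 8 macrophage markers summed to 1644 RPKM there and to 25.2 to 68.4 RPKM in the other 5 libraries, where Adgre1, Clec4f and Vsig4 were at 0. Stellate markers were at 0 in every library (0 of 6 genes), and endothelial markers had reads in wild-type replicate 1 only (2 of 6 genes). Biliary markers (3 of 5 genes with reads) summed to 9.09, 510 and 190 RPKM in knock-out libraries against 353, 123 and 152 in wild-type ones. Most of this was Spp1, except in knock-out replicate 1, where Spp1 was at 0. Lymphocyte markers summed to 105.7 RPKM in wild-type replicate 1, nearly all Ptprc, and to at most 0.143 in the others. In wild-type replicate 1 Cd3e and Nkg7 were at 0 and Cd79a at 0.0655 RPKM, so this sum does not show lymphocyte RNA. Erythroid markers summed to 0 to 4.97 RPKM.

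All 13 protein-coding genes had reads in all 6 libraries, and they were among the most abundant transcripts of these cells. By mean RPKM over the 6 libraries 6 of them ranked among the 20 highest of all genes, and 11 among the 30 highest. The transcript levels spanned a wide range. At the top stood mt-Co1 at a mean of 15153 RPKM, the third highest of all genes, and at the bottom mt-Nd3 at 313.3 RPKM, ranked 388. The other 11 lay between 2698 and 9471 RPKM.

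**Figure D1:**
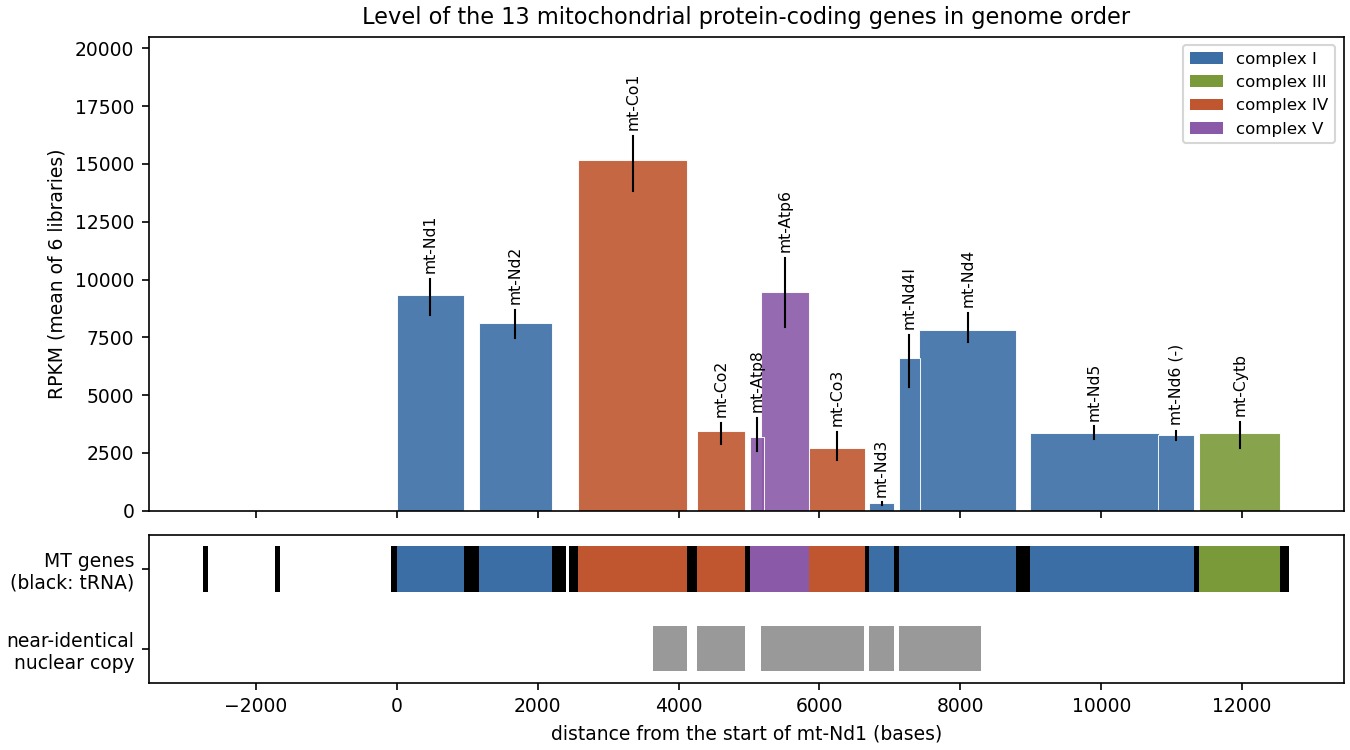
Mean RPKM over the 6 libraries of each mitochondrial protein-coding gene (bar, to scale in width; line, lowest to highest library) against distance in bases from the start of mt-Nd1, coloured by respiratory complex, with (-) for the gene on the minus strand. The lower panel shows the 35 genes and, in grey, the stretches with a nuclear copy of at least 99% identity among annotated transcripts, the only sequences aligned. mt-Co1 stands highest at 15153 RPKM and mt-Nd3 lowest at 313.3.

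Complex I, NADH dehydrogenase, takes electrons from NADH, and 7 of its subunits are encoded here. The subunits mt-Nd1 and mt-Nd2, membrane-arm proteins whose genes come before mt-Co1 in the genome, were read at similar levels. mt-Nd1 measured 8958, 10028 and 9899 RPKM in knock-out replicates 1 to 3 against 8855, 8484 and 9713 in wild-type replicates 1 to 3. mt-Nd2 measured 7623, 8689.6 and 8416 RPKM in knock-out libraries against 7948, 7469 and 8501 in wild-type ones. Values are given in replicate order throughout. In both genes knock-out replicate 1 lay among the wild-type values and the groups overlapped.

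mt-Nd4 and mt-Nd4l, further membrane-arm subunits, are translated from a shared message and have the 7 bases printed above in common. mt-Nd4 measured 7536, 8544 and 8003 RPKM in knock-out libraries against 7292, 7911 and 7534 in wild-type ones. mt-Nd4l measured 6374, 7598 and 6944 RPKM in knock-out libraries against 6821, 5365 and 6641 in wild-type ones. Wild-type replicate 2 was the lowest for mt-Nd4l and the highest wild-type library for mt-Nd4, and the RPKM ratio of mt-Nd4l to mt-Nd4 was 0.678 there and 0.846 to 0.936 in the other 5 libraries. The files treat the pair as 1 locus and divide its reads into fractions.

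mt-Nd5, a long membrane-arm subunit, measured 3100, 3405 and 3644 RPKM in knock-out libraries against 3373, 3391 and 3331 in wild-type ones. mt-Nd6, the subunit encoded on the other strand, measured 3043, 3157 and 3444 RPKM in knock-out libraries against 3239, 3245 and 3432 in wild-type ones. The knock-out libraries spread around the wild-type values in both genes. The level of mt-Nd6 stayed close to that of mt-Nd5 in every library, with an RPKM ratio of 0.927 to 1.03. Its messages are known to lack a long poly(A) tail, and no source used here states whether the counting used strand, so reads of mt-Nd6 and reads antisense to it cannot be told apart.

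mt-Nd3, a small complex I subunit, measured 268.1, 348.3 and 329.1 RPKM in knock-out libraries against 317.4, 258.2 and 358.8 in wild-type ones. Its 1888 to 2564 estimated reads per library were the fewest of the 13 genes. The RPKM of mt-Co1 was 40.3 to 62.8 times that of mt-Nd3 within a library. A near-identical nuclear copy, described below, matches 99.1% of the length of mt-Nd3, and another 31.3% of mt-Co1. How reads shared with these copies enter the ratio was not tested.

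Complex III passes electrons to cytochrome c, and cytochrome b, encoded by mt-Cytb, is its only subunit made in the organelle. mt-Cytb measured 3041, 3853 and 3712 RPKM in knock-out libraries against 3469, 2701 and 3448 in wild-type ones. The lowest values were those of knock-out replicate 1 and wild-type replicate 2, 1 library of each genotype.

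Complex IV, cytochrome c oxidase, reduces oxygen to water, and mt-Co1, mt-Co2 and mt-Co3 encode its core. mt-Co1, which binds the haem groups of the active site, measured 15044, 16215 and 15129 RPKM in knock-out libraries against 13843, 16208 and 14477 in wild-type ones. mt-Co2, which receives electrons from cytochrome c, measured 3453, 3794 and 3682 RPKM in knock-out libraries against 3404, 2878 and 3546 in wild-type ones. mt-Co3, a structural core subunit, measured 2588, 2972 and 2201 RPKM in knock-out libraries against 2569.8, 2456 and 3403 in wild-type ones. The 3 subunits of this complex were thus read at unequal levels: mt-Co1 was 4.07 to 5.63 times mt-Co2 and 4.25 to 6.87 times mt-Co3 in RPKM. Near-identical nuclear copies, described below, match 99.6% of the length of mt-Co2, 99.9% of mt-Co3 and 31.3% of mt-Co1. How reads shared with these copies enter the ratios was not tested.

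Complex V, the ATP synthase, has the proton channel subunit mt-Atp6 and the small membrane subunit mt-Atp8 from this genome. mt-Atp6 measured 8796, 10622 and 10946 RPKM in knock-out libraries against 9126, 7963 and 9373 in wild-type ones. mt-Atp8 measured 4009.5, 3814 and 2589 RPKM in knock-out libraries against 3389, 2581 and 2642 in wild-type ones. The order of the libraries differed between these neighbours: knock-out replicate 3 had the highest mt-Atp6 and, of the knock-out libraries, the lowest mt-Atp8. The RPKM ratio of mt-Atp8 to mt-Atp6 ran from 0.237 in knock-out replicate 3 to 0.456 in knock-out replicate 1. Both genes belong with mt-Co3 to 1 locus whose reads were divided into fractions. The part of that division in the ratio was not tested.

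**Figure D2:**
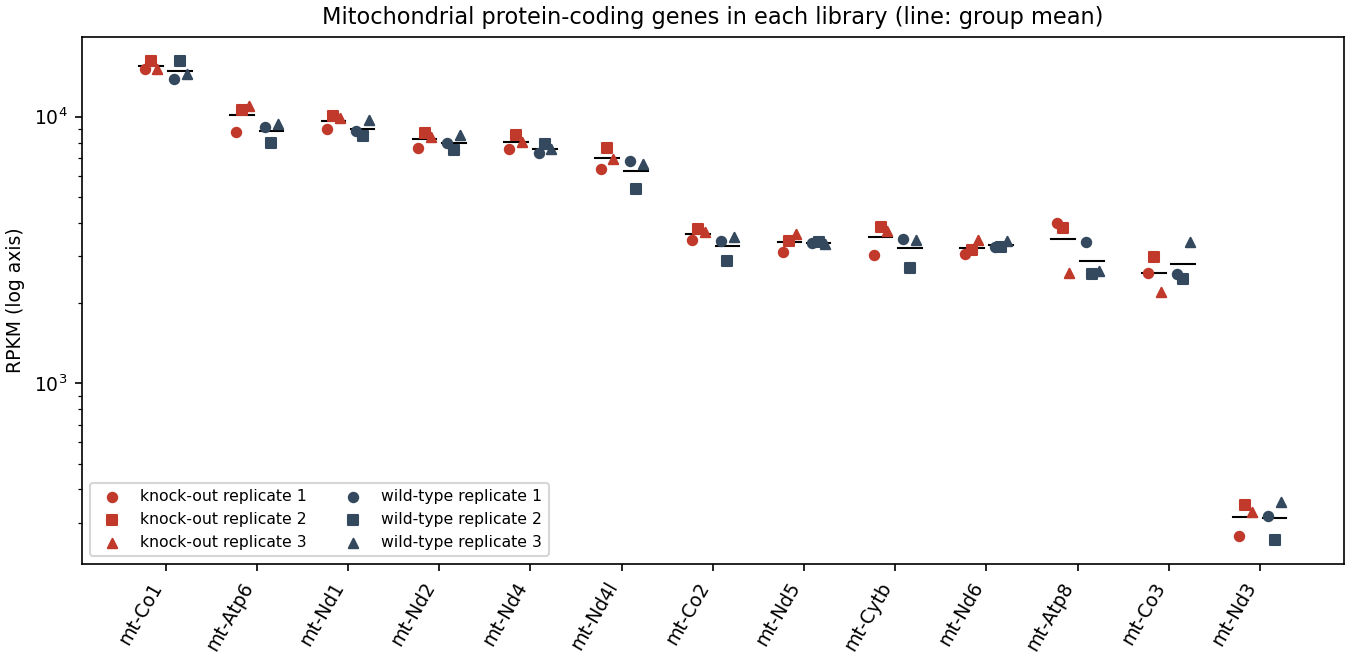
RPKM on a log axis of each mitochondrial protein-coding gene in each library (points; red, knock-out; dark blue, wild-type; shape, replicate number; line, group mean). The groups overlap in all 13 genes, and mt-Nd3 lies 8.61-fold below the next gene, mt-Co3.

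In the order of mean levels, 3 steps separated neighbours whose ranges over the 6 libraries did not overlap. These were mt-Co1 above mt-Atp6 by 1.6-fold, mt-Nd4l above mt-Co2 by 1.91-fold, and mt-Co3 above mt-Nd3 by 8.61-fold. Between those steps mt-Atp6, mt-Nd1, mt-Nd2, mt-Nd4 and mt-Nd4l formed a run with overlapping ranges. A further run held mt-Co2, mt-Nd5, mt-Cytb, mt-Nd6, mt-Atp8 and mt-Co3. Within these runs mt-Nd1 still exceeded mt-Nd2, and mt-Nd4 exceeded mt-Nd4l, in 6 of 6 libraries, whereas mt-Atp6 exceeded mt-Nd1 in only 3. How reads shared with near-identical nuclear copies, described below, enter this order of levels was not tested.

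The 3 genes mt-Atp8, mt-Atp6 and mt-Co3 form 1 locus in the files, whose reads were divided among them as fractions. The spread of the single genes was large: over the 6 libraries the coefficient of variation of the share of all reads was 19.8% for mt-Atp8, 13.8% for mt-Atp6 and 15.4% for mt-Co3, and 10.6% for their sum. The sum was 178807, 204935 and 186840 reads in knock-out libraries against 186905, 172461 and 196913 in wild-type ones. For mt-Nd4l and mt-Nd4 the coefficients were 12.5% and 5.86%, and 6.27% for their sum.

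None of the 22 transfer RNA genes had a read in any library (0 of 22). They are 59 to 75 bases long, 14 on the plus strand and 8 on the minus strand, and sit between the messages described above. An example is the leucine transfer RNA gene mt-Tl1 at chrMT:2676-2750 on the plus strand, which ends at the base before mt-Nd1 begins.
mt-Tl1: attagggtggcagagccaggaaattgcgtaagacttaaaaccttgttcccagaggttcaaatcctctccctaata

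Only if transcripts this short can be counted does a count of 0 bound the share. The bound would be 1.18e-05% of the reads of a library (3 reads of the total, counting error only). Length moved with these zeros. Of 2367 transcripts shorter than 100 bases anywhere in the files, 0 had a read in any library, against 81 of 4137 (1.96%) from 100 to 199 bases and 21.3% of longer ones. The zeros therefore do not show that transfer RNAs were missing from the cells, and their shares in the 2 genotypes could not be compared.

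Nuclear chromosomes carry old insertions of mitochondrial DNA, and reads from such copies and from the genes themselves can be hard to tell apart. An alignment of the mitochondrial transcripts to all others in the files found 15 nuclear genes that matched a mitochondrial gene at 90% identity or more over at least 80% of their length. Of these, 7 matched at 99% or more. All 7 lie in a row on chromosome 1, from 24611535 to 24616197 on the minus strand, and hold mt-Atp6 (Gm10925), mt-Co2 (Gm28661), mt-Co3 (Gm28437), mt-Nd4l (Gm10222), mt-Nd3 (Gm28438), the first 876 bases of mt-Nd4 (Gm28439) and the last 483 bases of mt-Co1 (Gm29216). The first 4 of these and Gm28439 had no mismatch. Gm28438 differs from mt-Nd3 by T3C, counted from 1 at the first base of mt-Nd3. Within the 483 aligned bases, Gm29216 differs from mt-Co1 by A1066T, counted likewise. Gm29216 is 492 bases long, and its first bases, which differ more, lay outside the alignment. Identity was taken over aligned bases only.

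The start of mt-Nd3 (chrMT:9459-9481, plus strand) and of Gm28438 (chr1:24613097-24613119, minus strand) shows how close the pair is, with the differing base in capitals.
mt-Nd3: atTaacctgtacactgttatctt
Gm28438: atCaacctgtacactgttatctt

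In the files, genes and copies had almost the same reads where the match covered the whole gene and the gene was a locus of its own. mt-Nd3 had 1888, 2402 and 2204 reads in knock-out libraries against 2314, 1968 and 2564 in wild-type ones. Gm28438 had 1876, 2376 and 2190 in knock-out libraries against 2294, 1954 and 2546 in wild-type ones. The 2 sets differed by at most 26 reads. mt-Co2 and Gm28661 differed by at most 24 reads per library, at 43104 to 51426 and 43106 to 51444. Whether the same reads were counted at both places was not tested.

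At the other identical copies the reads came to 54.6% to 63.1% of those of mt-Nd4l (Gm10222), 28.8% to 33.6% of mt-Atp6 (Gm10925) and 78.2% to 123% of mt-Co3 (Gm28437). The copies of parts of genes had 39.8% to 41.8% of the reads of mt-Nd4 (Gm28439) and 20.3% to 20.7% of those of mt-Co1 (Gm29216). Gm28437 and mt-Co3 did not follow each other from library to library. Gm28437, whose reads are whole numbers in the files, had 38868, 45334 and 40828 reads in knock-out libraries against 42700, 39160 and 42816 in wild-type ones. As a share of all reads, its coefficient of variation was 9.75%, against 15.4% for mt-Co3. Copies with lower identity had few reads relative to the gene they match: Gm13340 had 3.11% to 3.29% of those of mt-Co1 (97.6% identity), Gm13341 11.9% to 12.4% of mt-Co2 (95.9%) and Gm13339 1.33% to 1.52% of mt-Nd2 (96.7%). In absolute terms Gm13340 (14288 to 18066 reads) and Gm13341 (5350 to 6248) still had more reads than mt-Nd3. The other 5, of mt-Nd5, mt-Nd6, mt-Cytb and mt-Co1 at 90.7% to 95.2% identity, had 0 to 4 reads per library. Thus mt-Nd1, mt-Nd2, mt-Nd5, mt-Nd6, mt-Cytb and mt-Atp8 had no copy of 99% identity or more by this rule. Gm10221 (172 to 198 reads) and Gm11478 (0 to 7106 reads), listed beforehand as possible copies, did not meet it. The rule covers annotated transcripts only, so a copy without one would not be found. In the mitochondrial genome mt-Atp8 begins between mt-Co2 and mt-Atp6. On chromosome 1 the stretch between their copies, from Gm10925 (end 24614651) to Gm28661 (start 24614885), was not aligned. A copy of mt-Atp8 there was thus not tested.

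**Figure D3:**
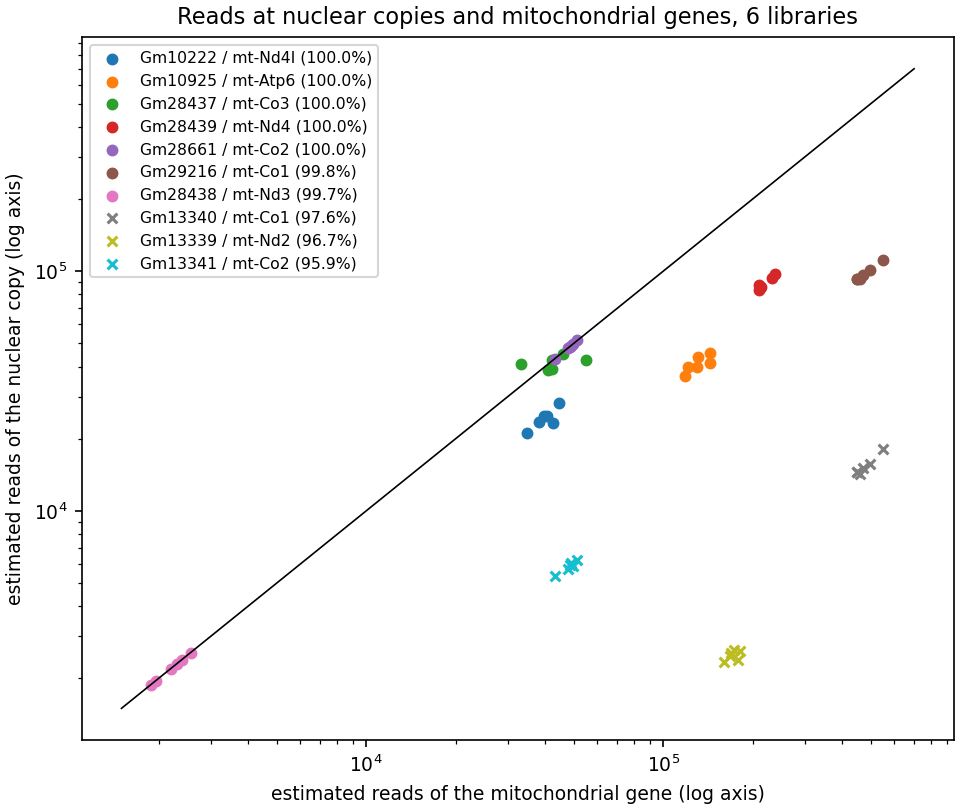
Estimated reads of nuclear copies against those of the mitochondrial gene they match, both on log axes, 1 point per library (circles, at least 99% identity; crosses, lower; line, equal reads). Gm28438 and Gm28661 lie on the line with mt-Nd3 and mt-Co2, and copies with lower identity lie far below it.

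Mitochondrial reads made up a similar share of the libraries of both genotypes. The 13 genes took 5.30%, 5.95% and 6.05% of all estimated reads in knock-out replicates 1 to 3 against 5.44%, 5.23% and 5.60% in wild-type replicates 1 to 3. Knock-out replicates 2 and 3 were above all wild-type libraries and knock-out replicate 1 was below 2 of them, so the groups overlapped. The means were 5.77% ± 0.41 in knock-out libraries against 5.42% ± 0.19 in wild-type ones (SD, n = 3 each; exact two-sided permutation p = 0.3, where the smallest possible is 0.1). Without knock-out replicate 1 the difference was 0.577 percentage points in place of 0.344. The 95% Wilson interval of a library's share was at most 0.00929 points wide to either side, counting error only, so the spread between libraries was far larger than the counting error. With the 7 near-identical copies added the share was 6.36% to 7.38%. The level depended on the total used. Against the smaller library total behind the RPKM values the means were 7.89% in knock-out and 7.48% in wild-type libraries. As a share of all RPKM they were 9.17% and 8.63%.

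Wild-type replicate 1, with the macrophage RNA, had a share of 5.44%, within the range of the other libraries. Malat1, a long RNA kept in the nucleus, measured 117.6, 83.8 and 160.9 RPKM in knock-out libraries against 198.5, 133.7 and 203.0 in wild-type ones. Malat1 overlapped between the groups, with the lowest values in knock-out replicates 2 and 1, and its part in the mitochondrial share was not tested. In bulk RNA, fewer cells of a type and less RNA per cell cannot be told apart, and likewise a change in the number of mitochondria, in the RNA per mitochondrion and in the RNA of the rest of the cell.

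Within the mitochondrial reads the complexes had similar proportions in all libraries. Complex I took 48.8% to 50.1% of them in all 6 libraries, complex IV 34.7% to 38.9%, complex V 8.01% to 10.0% and complex III 4.16% to 5.41%. The single gene mt-Co1 took 31.4%, 30.2% and 29.3% in knock-out libraries against 29.2%, 33.7% and 29.1% in wild-type ones. mt-Cytb took 4.70%, 5.31% and 5.33% in knock-out libraries against 5.41%, 4.16% and 5.14% in wild-type ones. Wild-type replicate 2 and knock-out replicate 1, which had the highest shares of mt-Co1, had the lowest of mt-Cytb and of mt-Nd3 (0.121% and 0.126%, against 0.144% to 0.163% in the other 4). This pattern crossed the genotypes.

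mt-Nd6 was the 1 gene of the 13 whose share of mitochondrial reads did not overlap between the genotypes. It took 2.13%, 1.97% and 2.24% in knock-out libraries against 2.29%, 2.27% and 2.32% in wild-type ones. Its estimated reads were also apart, at 31950, 32470 and 34400 in knock-out libraries against 35218, 36880 and 36578 in wild-type ones. Among all 11,021 genes tested 9.94% had estimated reads that did not overlap between the groups, so 1 of 13 is near that background. In RPKM, which accounts for the size of the library, mt-Nd6 overlapped, as did all others (0 of 13 apart, against 5.46% of all genes).

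**Figure D4:**
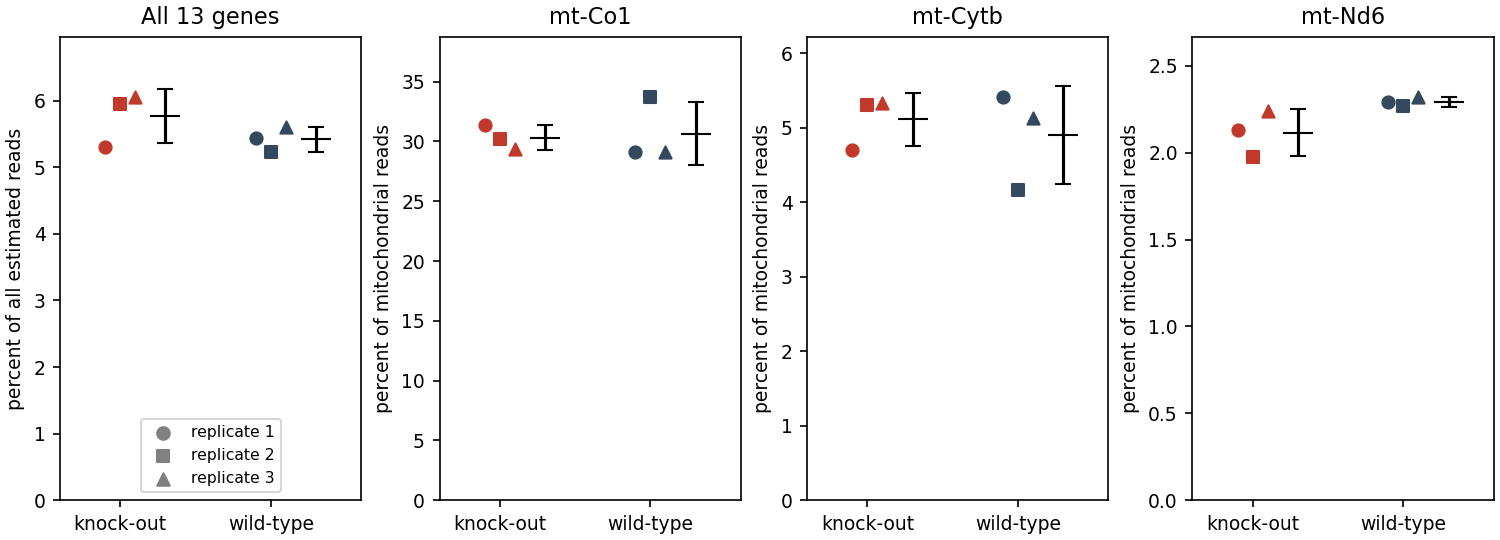
Share of all estimated reads taken by the 13 genes, and shares of mitochondrial reads taken by mt-Co1, mt-Cytb and mt-Nd6, in each library (points; shape, replicate number), with group mean and SD (n = 3) beside them. Wild-type replicate 2 is highest for mt-Co1 (33.7%) and lowest for mt-Cytb (4.16%), and the groups are apart only for mt-Nd6.

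Loss of Bim in hepatocytes went with no called change in any mitochondrial message. In limma on log2(RPKM + 1), 0 of the 13 genes passed an adjusted p of 0.05, against 0.789% of the 11,021 genes tested. None (0 of 13) was under an unadjusted p of 0.05, against 208 of the 11,021. Among the 5538 tested genes with reads in all 6 libraries, as these 13 have, 0 passed when fitted alone. With voom on the estimated reads 0 of the 13 passed as well, against 84 of the 11,021 genes. There mt-Co2 was the 1 gene of the 13 with an unadjusted p below 0.05 (0.0246, adjusted 0.906), as were 413 of the 11,021. The adjusted p-values lay between 0.941 and 1.00. The difference, knock-out minus wild-type, was positive in 11 of 13 genes, but in 7 with quantile normalization, and had a median of 0.08, where the median over all genes tested was -0.01.

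With all 6 libraries the differences farthest from 0 were those of mt-Atp8 and mt-Atp6, but this order depended on single libraries. Leaving out 1 library gave 0.14 (without knock-out replicate 1) to 0.46 (without knock-out replicate 3) for mt-Atp8 and 0.12 to 0.29 for mt-Atp6. Without knock-out replicate 1, mt-Cytb (0.25), mt-Nd4l (0.22) and mt-Co2 (0.20) exceeded mt-Atp8, and without knock-out replicate 2 mt-Co3 (-0.22) was the farthest from 0. mt-Atp8 measured 3471 ± 770 RPKM in knock-out libraries against 2871 ± 450 in wild-type ones (SD, n = 3 each), a log2 difference of 0.26 (SE 0.22; limma adjusted p = 0.941). mt-Atp6 measured 10122 ± 1159 RPKM in knock-out libraries against 8821 ± 753 in wild-type ones (SD, n = 3 each), a log2 difference of 0.20 (SE 0.12; adjusted p = 0.941). mt-Co1 measured 15463 ± 653 RPKM in knock-out libraries against 14843 ± 1224 in wild-type ones (SD, n = 3 each), a log2 difference of 0.06 (SE 0.08; adjusted p = 0.943), which became -0.08 with quantile normalization. mt-Nd6 was at 3215 ± 207 and 3305 ± 110 RPKM (SD, n = 3 each), a log2 difference of -0.04 (SE 0.08; adjusted p = 0.979). Each of these differences was within the spread of the libraries.

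Each 95% interval was taken gene by gene and rests on the spread of these libraries, which may be technical. The intervals are therefore no bound on a difference between mice. For all 13 genes both bounds were less than 2-fold from equality, on the RPKM + 1 scale. The widest was that of mt-Atp8, from -0.30 to 0.82 on the log2 scale, and the narrowest bounds were those of mt-Nd4 (-0.11 to 0.27) and mt-Nd6 (-0.24 to 0.15). For mt-Co3 the sign depended on which copy of the sequence was read: the log2 difference was -0.11 (SE 0.18) for mt-Co3 and 0.10 (SE 0.11) for Gm28437, which matches 783 of the 784 bases of mt-Co3. For mt-Co2 and Gm28661 it was 0.16 (SE 0.10) at both.

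**Figure D5:**
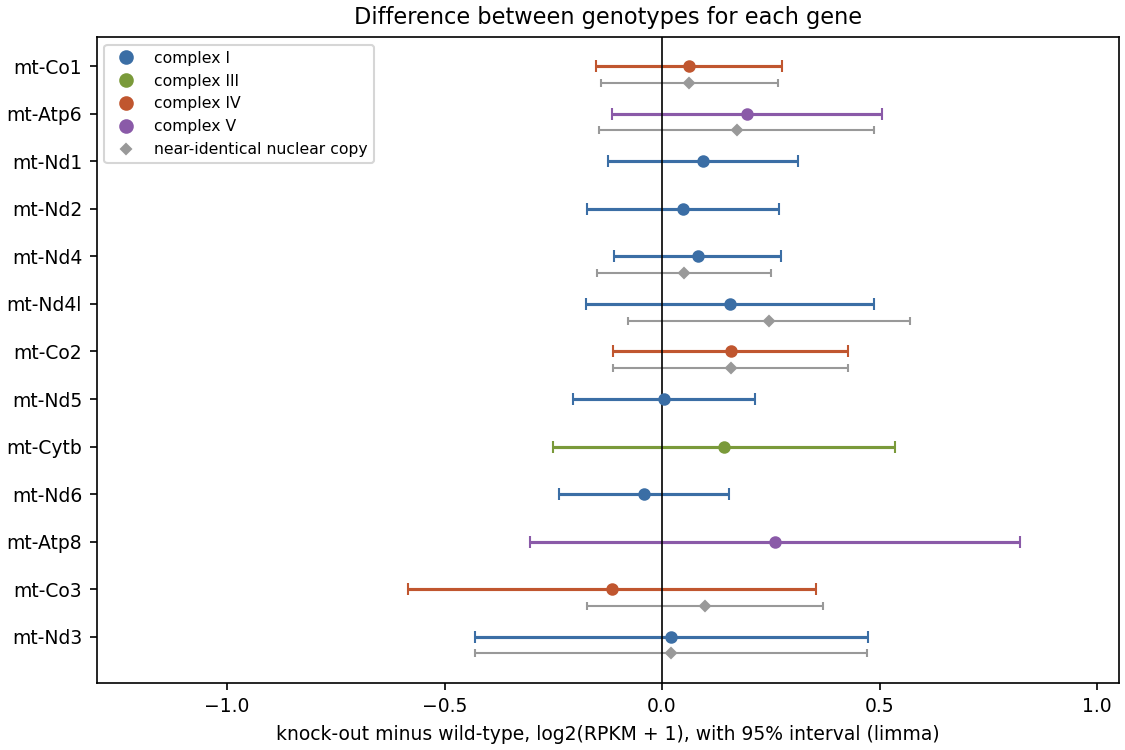
Knock-out minus wild-type on the log2(RPKM + 1) scale with 95% interval (limma) for each mitochondrial protein-coding gene (coloured by complex) and, in grey, its near-identical nuclear copy. Every interval includes 0, and that of mt-Atp8 is the widest (-0.30 to 0.82).

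Nuclear genes that transcribe, process and translate mitochondrial RNA or keep mitochondrial DNA were read as a list of 67 names, of which 65 are in the files, 60 had reads and 57 were tested. With limma 0 rose and 0 fell in knock-out (0.372% and 0.417% of all genes did), and 0 were under an unadjusted p of 0.05. Over all 11,021 genes 208 were. With voom 0 were called and 2 were under an unadjusted p of 0.05, against 84 and 413 of the 11,021. Of the 57 tested, 28 had reads in all 6 libraries, against 5538 of the 11,021 genes tested overall. Of these 28, 14 had a positive difference, the median was 0.00 and the range -0.22 to 0.24 on the log2 scale. The call depended on which libraries were kept: Pnpt1 and Mgme1 passed without knock-out replicate 1, Lrpprc without knock-out replicate 3, Tbrg4 without wild-type replicate 1 and Tsfm without wild-type replicate 3. All of them are genes listed at 0 in some libraries and named here after these values were seen. With 1 library left out, 171 to 198 of all 10,693 to 10,929 genes tested passed.

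The 4 most abundant members with reads in every library are described here. Lonp1, the protease of the mitochondrial matrix, measured 123.3, 150.5 and 127.8 RPKM in knock-out libraries against 125.0, 135.8 and 129.3 in wild-type ones. Rexo2, which degrades short RNA, measured 117.7, 128.9 and 108.5 RPKM in knock-out libraries against 95.02, 99.1 and 121.7 in wild-type ones. Ssbp1, which coats single-stranded mitochondrial DNA, measured 67.6, 66.7 and 78.1 RPKM in knock-out libraries against 82.2, 68.5 and 69.0 in wild-type ones. All 3 overlapped between the genotypes. Trnt1, which adds the CCA end to transfer RNAs, measured 67.0, 56.3 and 66.3 RPKM in knock-out libraries against 80.7, 69.2 and 70.7 in wild-type ones, groups that did not overlap (5.46% of all genes did not). Its log2 difference was -0.22 (SE 0.13) with an adjusted p of 0.941.

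Tfam, Lrpprc, Slirp and Mtpap are given as further members of the list, named after their values were seen. Tfam, which packages mitochondrial DNA and starts its transcription, had 1522, 0 and 1598 reads in knock-out libraries against 1858, 0 and 0 in wild-type ones, while Lrpprc, which stabilises the messages, had 3466, 4048 and 0 in the knock-out libraries and 0 in all wild-type ones. Slirp, the partner of Lrpprc, had 2034 to 2426 reads in all 6, and Mtpap, the mitochondrial poly(A) polymerase, 500 to 684. Slirp and Mtpap overlapped between the genotypes in RPKM. The 13 mitochondrial protein-coding genes were listed at 0 in no library while Lrpprc and Tfam were, and in these files an exact 0 can be a failed estimate. Of 12 regulators of mitochondrial biogenesis, 10 were tested, 0 passed in limma, and 3 (Gabpa, Yy1 and Sirt3) had reads in all 6 libraries, with log2 differences of -0.09, -0.0046 and 0.12.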

How the data were processed

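Polyadenylated RNA of 3 knock-out and 3 wild-type hepatocyte samples was measured, 1 file per library, grouped and numbered by sample title. The submitters' processing notes name TopHat2 (version 2) and the build GRCm38 (mm10). How reads were assigned to transcripts, with what strand setting, and how reads with several alignments were treated is stated in no source used here. The deposited files give per transcript an estimated read count, not normalized, and an RPKM value whose library total (19,245,556 to 21,899,881) is below the sum of the estimated reads. Estimates of a locus summed to whole numbers (within 0.001) in 99.46% to 99.66% of cases, and 92.28% to 92.98% of such sums were even numbers, so counting intervals are too narrow.

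Reads and RPKM were summed per gene; 47,993 gene identifiers matched a symbol and 360 did not. Genes whose mean reached 1 RPKM were tested on log2(RPKM + 1) with limma 3.58.1 in R 4.3.3 (mean-variance trend, two-sided, Benjamini-Hochberg over all 11,021 genes). The fit was tried first on data simulated from genes above 0 in all 6 libraries, with 1 common spread. That trial does not cover genes listed at 0 in some libraries. Fold changes on this scale understate those of low genes. Single values were compared with exact permutation tests. Copies were found with BLAST 2.17.0 (blastn) on GENCODE M21 transcripts, which held 117,606 of the 118,492 transcripts. Alternatives were pseudocount 0.1, other filters, scaling, voom on reads divided by 2, a replicate block and leaving out each library; scaling to the sum of all estimated reads and to the total behind the RPKM, and the alignment of copies, were chosen after seeing the data. All genes of chromosome MT were named by rule, with the 4 most abundant machinery genes, members past the test, listed copies with reads and Bcl2l11. Members and lists were chosen with earlier results of these data known. Python 3.11.15, pandas 2.3.3, numpy 2.4.6, scipy 1.17.1 and matplotlib 3.10.9 were used.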

Additional observations from a re-analysis of the deposited data

How the results depend on the processing

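The adjusted p of each of the 13 genes stayed at 0.847 or above under all 16 alternatives, so 0 were called in each. Direction was kept in 197 of 208 gene-by-alternative comparisons and turned in 11, in 7 genes. The other filters, the looser threshold and the replicate block cannot change the difference of these genes. Direction under those alternatives was therefore fixed in advance and is no sign of stability. All 11 turns came with quantile normalization or with 1 library left out. With quantile normalization the log2 difference turned to -0.08 for mt-Co1 and -0.08 for mt-Nd1 (-0.078 and -0.0835), -0.00531 for mt-Nd2 and -0.0267 for mt-Nd4, and that of Ssbp1 turned to 0.0129. The cause was not tested. Leaving out 1 library gave -0.0504 to 0.0662 for mt-Nd5, -0.11 to 0.13 for mt-Nd3, -0.22 to 0.0316 for mt-Co3, -0.0503 to 0.0924 for Lonp1 and -0.12 to 0.038 for Ssbp1. The difference in the mitochondrial share stayed positive, between 0.201 and 0.577 percentage points without 1 library and between 0.263 and 0.54 under the other alternatives.

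Over all genes 87 passed. With genes above 0 in all 6 libraries 0 passed (130 at an unadjusted p below 0.05), since genes listed at 0 in some libraries are left out by construction. Leaving out 1 library gave 171 to 198 over all genes and 0 to 2 in the machinery list. Bcl2l11, at 0 in all knock-out libraries, had a fitted log2 difference of -2.07 (limma adjusted p = 0.941), which is no bound: it was -4.18 with pseudocount 0.1, -5.97 with voom and -3.11 to -1.46 without 1 library. Without wild-type replicate 1, the only wild-type library at 0, it passed (-3.11, adjusted p = 0.0236), a call that sets exact zeros against values above 0 and says nothing of the size.

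Same-numbered libraries did not deviate together (correlations of -0.16, -0.05 and -0.01 over 5538 genes), and no library of either genotype correlated best with its own number. With the replicate block 0 genes passed over all genes, 0 of the 13 passed, and the difference in share was 0.344 points (exact paired sign-flip p = 0.5, smallest possible 0.25). Shares of ribosomal and transfer RNA had no value under any setting, since the former genes are not analysed here and the latter had 0 reads. Bcl2l11 had no value with a mean of at least 5 RPKM or with genes above 0.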

Other observations

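The messages of the mitochondrial genome stood far above those of their nuclear partners. Of 75 nuclear genes for subunits of the respiratory complexes in the files, 32 had reads in all 6 libraries, with a median of 103.5 RPKM over these genes, whereas 13 of 13 mitochondrial genes had reads in all 6. The highest nuclear subunit with reads in all libraries was Atp5b, the catalytic subunit of the ATP synthase, at a mean of 928 RPKM. Of the mitochondrial genes, mt-Nd3 (313.3 RPKM) was below it, and the next lowest, mt-Co3, was at 2698 RPKM. In complex I, the 15 nuclear subunits with reads in all libraries lay between 11.1 and 177 RPKM (Ndufa12). In complex IV the highest of 4 was Cox7c at 268.8 RPKM, and in complex III the highest of 4 was Uqcrb at 313.6 RPKM. The level of a nuclear gene is a sum over its transcripts and could move while its reads hardly did. Cox7c had 1903 to 2111 reads but 136 to 318 RPKM, and Atp5a1 22166 to 25336 reads but 420 to 1394 RPKM. Mitochondrial genes have 1 transcript each, so the 2 measures are not quite alike. Complex II, which has no mitochondrial gene, had Sdha highest at 145.9 RPKM. In limma 4 of the 69 nuclear subunit genes tested passed, 3 higher and 1 lower in knock-out (0.789% of all genes tested passed, 0.372% higher and 0.417% lower), each listed at 0 reads in all 3 libraries of 1 genotype. Ndufc2 (1988 to 2122 reads), Uqcrq (3566 to 3944) and Atp5d (4110 to 5033) had reads in the knock-out libraries only, and Ndufa9 (2462 to 2718) in the wild-type libraries only, with no fold given because an exact 0 can be a failed estimate. Of the 32 with reads in all 6 libraries 0 passed.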
